A study of Mus musculus with 6 samples.

Results

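The genes encoding the proteins of the cytosolic ribosome were examined in mouse cerebellar granule neurons (CGNs) given GSK-126 or its vehicle DMSO. Members were the rows of the count tables whose symbol is that of a large subunit protein (Rpl, Rplp) or a small subunit protein (Rps, Rpsa), with pseudogenes named -ps left out. This symbol rule found 84 of 55341 rows, 52 for the large and 32 for the small subunit. Of the 84, 77 passed the filter on low counts (edgeR's filterByExpr) and were tested, 45 of the large and 32 of the small subunit. They are among 16729 tested genes.

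The cytosolic ribosome is built from a large and a small subunit, each of which is ribosomal RNA with a set of proteins present in a single copy, apart from the acidic stalk proteins. Because the proteins are needed in equal amounts, their genes are expressed together in nearly all cells, and their mRNAs begin with a run of pyrimidines, the 5′ terminal oligopyrimidine (TOP) tract, through which mTORC1 and LARP1 control their translation. EZH2, the enzyme that GSK-126 inhibits, is the catalytic subunit of PRC2 and places trimethylation on lysine 27 of histone H3, a mark of repressed promoters.

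CGN progenitors from CD-1 IGS mouse pups of both sexes were purified from the cerebellum and cultured, with the antimitotic AraC added after plating, and each replicate was made from pooled litters. DMSO or GSK-126 was added at day in vitro 3 (DIV3), and there were 3 libraries of each group, with replicates numbered 1 to 3. The study's methods describe these cultures and RNA collection at DIV5, whereas cerebellar tissue and DIV3 stand in the labels, and the dose used for this addition was not given in the sources used here. Poly-A RNA was sequenced, and reads on the exons of each gene were counted. Counts on genes ranged from 7407189 to 13092763 per library, and expression is given as CPM, counts scaled to a fixed library total, adjusted with TMM factors. All 10 granule neuron markers examined were expressed, and their summed level was 3750, 5850 and 4350 CPM in DMSO replicates 1, 2 and 3 and 3040, 4530 and 3360 CPM in GSK-126 replicates 1, 2 and 3. Markers of glia and of vascular cells and fibroblasts were also present and are given beside the results below. Transcripts of Ezh2 were at 43.7, 36.1 and 29.8 CPM with DMSO, against 41.8, 32.7 and 26.2 CPM with GSK-126, which reports on the transcript and not on the enzyme that the drug inhibits. In bulk RNA, fewer cells of a type and less RNA per cell cannot be told apart.

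The ribosomal protein genes together took between 1.17% and 2.08% of the counts on genes. Their summed level was 17541, 12350 and 16035 CPM in DMSO replicates 1, 2 and 3, and 20617, 16656 and 17812 CPM in GSK-126 replicates 1, 2 and 3. The highest GSK-126 library and the lowest DMSO library stood at the ends of this range, and the groups overlapped, since GSK-126 replicate 2 lay below DMSO replicate 1. The means were 15308 CPM (SD 2671) for the 3 DMSO libraries and 18362 CPM (SD 2037) for the 3 GSK-126 libraries, a ratio of 1.20. Within a replicate number, the GSK-126 library exceeded its DMSO library by 17.5%, 34.9% and 11.1% for numbers 1, 2 and 3. Both subunits moved together, as the ratio of the large to the small subunit sum lay between 1.45 and 1.51 in the 6 libraries.

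**Figure D1:**
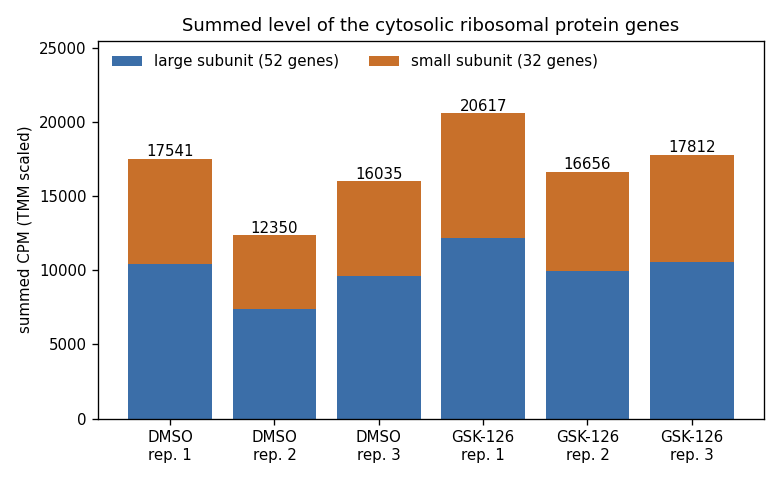
Summed level of the 84 cytosolic ribosomal protein genes in each library (y axis, CPM scaled with TMM factors), stacked by subunit, with the total above each bar. DMSO replicate 2 is the lowest library at 12350 CPM and GSK-126 replicate 1 the highest at 20617 CPM, and each GSK-126 bar is taller than the DMSO bar of the same replicate number.

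Levels of single genes were compared per kilobase of the gene's annotated mRNA. Over the 77 tested genes the median was 262 CPM per kilobase (quartiles 182 and 347). Rplp1, an acidic protein of the stalk that recruits translation factors, had the highest level per length at 827 CPM per kilobase, and Rps10, which lies at the mRNA entry side of the small subunit, the lowest at 3.87. The 5 genes with the most CPM, which also grow with mRNA length, were Rplp0, the base of the stalk (627 CPM), Rpl4, which lines the peptide exit tunnel (573 CPM), Rpsa, a small subunit protein also known as the laminin receptor (548 CPM), Rpl7 (435 CPM) and Rplp1 (413 CPM).

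The question put to these libraries was whether adding GSK-126 at DIV3 changed the mRNA of the ribosomal proteins. The median log2 fold change of the 77 genes was 0.27 (quartiles 0.22 and 0.31), a fold of 1.21, while the median of all tested genes was -0.0071. For the large subunit the median was 0.26 and for the small subunit 0.28. A log2 fold change above 0 was found in 74 of the 77, where 48.8% of all tested genes lay above 0. In edgeR's quasi-likelihood test without a block, 0 of these genes reached an adjusted p of 0.05 (Benjamini-Hochberg), and the smallest was 0.953. The same fit called 0% of all tested genes in either direction, and 2 of the 77 had an unadjusted p under 0.05, where 1.77% of all tested genes did so upward and 2.21% downward. Leaving out DMSO replicate 2 gave a median of 0.13, leaving out GSK-126 replicate 1 gave 0.19, and leaving out DMSO replicate 1 gave 0.40, so its size moved with single libraries and its sign did not.

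Libraries with the same replicate number deviated together from their group means, so the comparison was also made within numbers. The medians of the 77 genes were 0.23, 0.47 and 0.14 on the log2 scale in pairs 1, 2 and 3, where the medians of all tested genes were 0.00013, -0.026 and -0.0072. In pair 1, 73 genes were higher in the GSK-126 library, in pair 2 there were 76 and in pair 3 there were 68. There were 65 of 77 genes that were higher with GSK-126 in all 3 pairs, against 19.5% of all tested genes. DMSO replicate 2 was the lowest of the 6 libraries for 72 of the genes and GSK-126 replicate 1 the highest for 70. All 3 GSK-126 libraries lay above all 3 DMSO libraries for 11 genes, against 4.72% of all tested genes, and 0 genes had the opposite order.

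**Figure D2:**
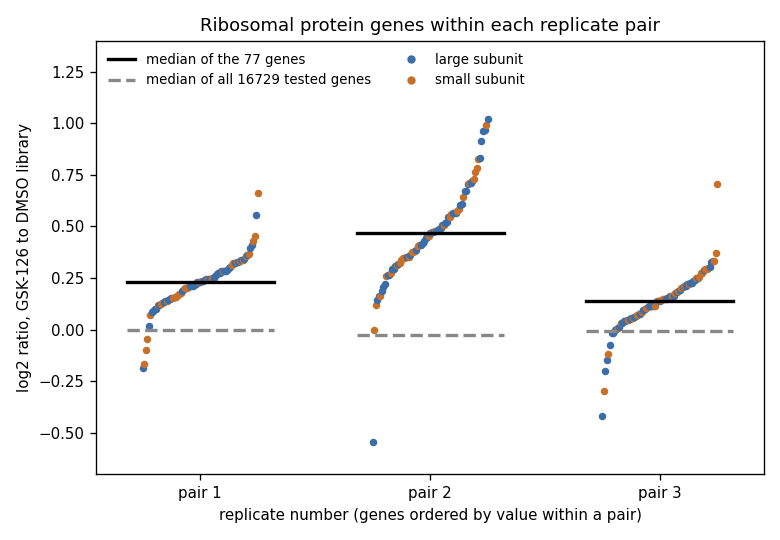
Log2 ratio of the GSK-126 to the DMSO library of the same replicate number (y axis) for each of the 77 tested genes, ordered by value within each pair (x axis) and coloured by subunit. Solid lines are the medians of these genes (0.23, 0.47 and 0.14) and dashed lines those of all 16729 tested genes, and most points lie above the dashed line in each pair.

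With the replicate number as a block, edgeR's quasi-likelihood test called 44 of the 77 genes higher with GSK-126 and 0 lower, by the same threshold. The same fit called 3.35% of all tested genes higher and 5.09% lower. The 44 were 23 genes of the large subunit, or 51.1% of those tested, and 21 of the small subunit, or 65.6%. At an unadjusted p under 0.05, 70 of the 77 were higher, against 9.43% of all tested genes. The median with the block was 0.28, or 0.18 when pair 2 was left out, and the number called was then 11. It was 37 of 77 without pair 1, 50 of 78 without pair 3 and 36 with DESeq2 and the block. DESeq2 fitted 83 members, not all of which had an adjusted p. The genes called over all tested genes in these fits are given in the last section. Of the 44, 8 passed in the block fit and in each of its 6 alternatives at the same threshold. These were Rpl12, Rpl23, Rpl31, Rplp1, Rps2, Rps12, Rps13 and Rps19, of which Rpl31, Rps2 and Rps13 are named here after their values were seen.

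**Figure D3:**
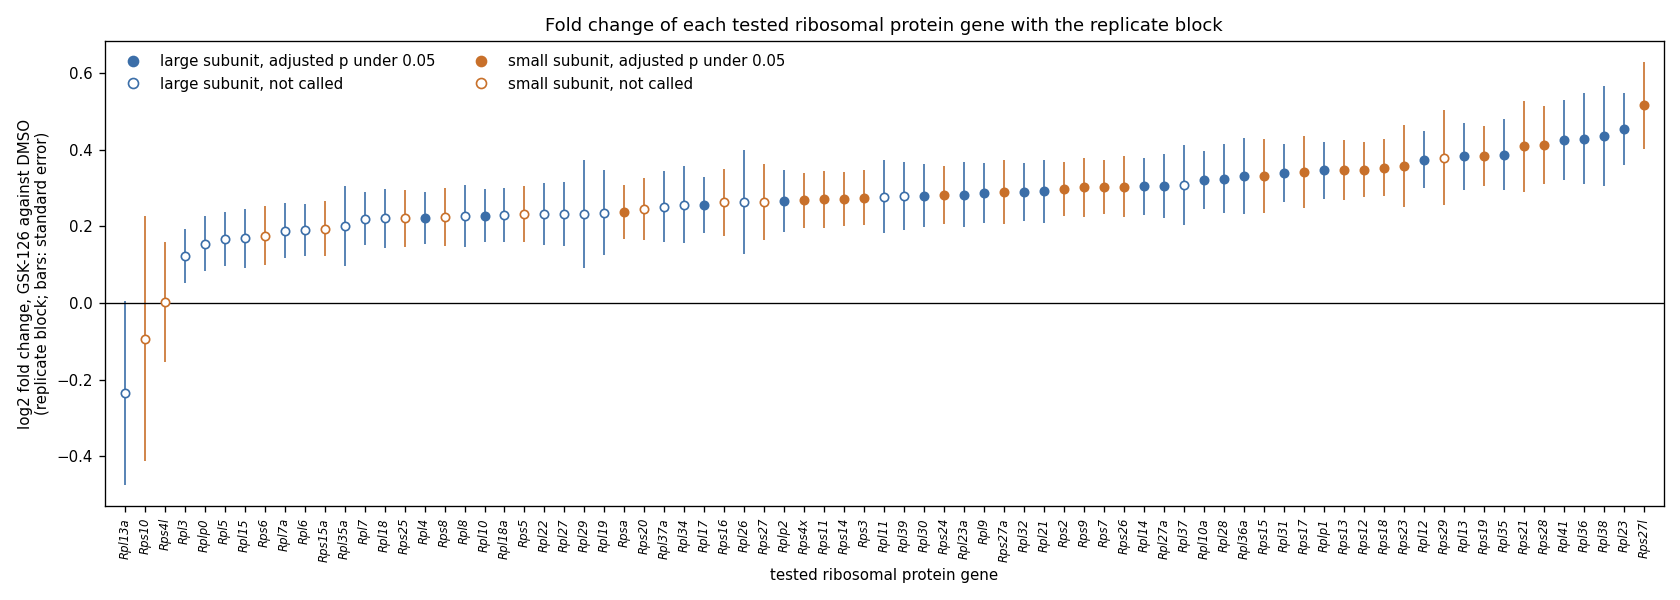
Log2 fold change of each of the 77 tested genes with GSK-126 against DMSO (y axis) from the fit with the replicate block, ordered by size (x axis). Bars are standard errors derived from the test statistic. Filled points are the 44 genes with an adjusted p under 0.05, all above 0, and Rpl13a, Rps10 and Rps4l at the left stand apart from the rest.

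The genes with the smallest p in the block fit are given in full. Rpl12 (ENSMUSG00000038900.17, GRCm38 chromosome 2, 32961559 to 32965345), a protein at the foot of the stalk, had 228, 164 and 204 CPM in DMSO replicates 1, 2 and 3 and 276, 235 and 256 CPM in GSK-126 replicates 1, 2 and 3. The lowest GSK-126 library thus lay above the highest DMSO library. On the log2 scale the difference was 0.37 both without the block (standard error 0.15, edgeR adjusted p = 0.953) and with it (standard error 0.075, edgeR adjusted p = 0.00276). Rps12 (ENSMUSG00000061983.7, chromosome 10, 23785183 to 23787275), a protein of the small subunit head, had 258, 206 and 262 CPM with DMSO, against 347, 260 and 317 CPM with GSK-126. The groups of Rps12 overlapped through GSK-126 replicate 2, and its block log2 fold change of 0.35 had a p under the threshold (standard error 0.071, adjusted p = 0.00333, edgeR). Rps19 (ENSMUSG00000040952.16, chromosome 7, 24884371 to 24889806), the gene most often mutated in Diamond-Blackfan anaemia, had 158, 107 and 162 CPM with DMSO, against 198, 157 and 196 CPM with GSK-126. For Rps19, too, only GSK-126 replicate 2 lay within the range of the DMSO libraries, and the block gave 0.38 (standard error 0.079, adjusted p = 0.00338, edgeR).

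Rpl23 (ENSMUSG00000071415.6, chromosome 11, 97777527 to 97782437), a large subunit protein that can bind MDM2, had 211, 102 and 177 CPM with DMSO, against 251, 182 and 218 CPM with GSK-126. The spread among its DMSO libraries was wide, and the block log2 fold change of 0.46 (standard error 0.094, adjusted p = 0.00354, edgeR) was 0.28 without pair 2. Rps18 (ENSMUSG00000008668.15, chromosome 17, 33951999 to 33956001), of the small subunit head, had 175, 156 and 153 CPM with DMSO, against 240, 193 and 188 CPM with GSK-126. Here DMSO replicate 2 was not the lowest library and the groups did not overlap. The block log2 fold change of Rps18 was 0.35 (standard error 0.074, adjusted p = 0.00409, edgeR), with an adjusted p of 0.0605 once pair 1 was left out, and 156 bp of its exons overlap Vps52 on the opposite strand. Rplp1 (ENSMUSG00000007892.8, chromosome 9, 61913284 to 61914542) had 421, 291 and 383 CPM with DMSO, against 495, 417 and 468 CPM with GSK-126. Its GSK-126 replicate 2 lay just below its DMSO replicate 1, and the block log2 fold change of 0.35 had a p under the threshold (standard error 0.074, adjusted p = 0.00451, edgeR).

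Among the other proteins of the stalk, Rplp2 had 203, 136 and 170 CPM with DMSO, against 217, 189 and 201 CPM with GSK-126, and a block log2 fold change of 0.27 (adjusted p = 0.0439, edgeR). Rplp0 had 599, 494 and 691 CPM with DMSO, against 716, 569 and 692 CPM with GSK-126, and its log2 fold change of 0.16 did not pass with the block (adjusted p = 0.208, edgeR). Rplp1 and Rplp2 were thus called higher and Rplp0, on which they assemble, was not, and the difference between them was not tested. Rpl5 and Rpl11, which bind 5S ribosomal RNA and can bind MDM2 when ribosome assembly is disturbed, had block log2 fold changes of 0.17 and 0.28, and neither passed (adjusted p = 0.164 and 0.0822, edgeR). In the exons of Rpl5, 953 bp overlap Fam69a on the opposite strand. Overlaps of this kind are annotated for further members too, among them Rpl12 (56 bp, Lrsam1), Rpl31 (420 bp, Tbc1d8) and Rpl35 (883 bp, Wdr38 and Arpc5l). Their bearing on the counts was not tested.

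Of the 4 X-linked genes, Rpl10, Rpl36a and Rps4x were called higher with the block and Rpl39, at the end of the exit tunnel, was not. Rpl10, a late-joining protein of the large subunit, had 344, 263 and 326 CPM with DMSO, against 380, 322 and 388 CPM with GSK-126, and a block log2 fold change of 0.23 (standard error 0.070, adjusted p = 0.0489, edgeR). Its call rested close to the threshold, since it was lost when any 1 of the 3 pairs was left out (adjusted p = 0.0651, 0.138 and 0.183, edgeR). Rps4x and Rpl36a had block log2 fold changes of 0.27 and 0.33 (adjusted p = 0.0232 and 0.0447, edgeR), and Rpl39 had 0.28 (adjusted p = 0.0540, edgeR).

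Several members come as a widely expressed gene and a paralog. Rps27l, a paralog of Rps27 that p53 can induce, had 49.8, 27.6 and 61.6 CPM with DMSO, against 78.9, 47.0 and 68.1 CPM with GSK-126. It had the largest log2 fold change of the 77 genes, 0.48 without and 0.52 with the block (standard error 0.30 and 0.11), and an adjusted p of 0.953 and 0.00612 (edgeR), the latter 0.0735 without pair 2. Rps27 itself had 149, 95.3 and 141 CPM with DMSO, against 186, 143 and 130 CPM with GSK-126, with a block log2 fold change of 0.26 that did not pass (adjusted p = 0.119, edgeR). For Rps27, 98.4% of the 100-base windows of its mRNA occur in other annotated transcripts as well, and for Rps27l 0% do. Rps4l (chromosome 6, 148354656 to 148355598), annotated as a transcribed processed pseudogene, was the gene nearest to no change, with 11.4, 16.7 and 17.3 CPM with DMSO, against 11.1, 16.7 and 17.9 CPM with GSK-126. Its libraries differed by replicate number and hardly within one. Rpl3 had 324, 267 and 274 CPM with DMSO, against 344, 304 and 293 CPM with GSK-126, a block log2 fold change of 0.12 (adjusted p = 0.328, edgeR).

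The 7 genes that did not pass the filter were Rpl3l, Rpl6l, Rpl10l, Rpl24, Rpl32l, Rpl36al and Rpl39l. Rpl10l, a retrogene of the testis, had 0 counts in all 6 libraries, and Rpl3l, which is known from muscle, reached at most 0.401 CPM. Rpl39l, another testis paralog, reached at most 0.869 CPM, and Rpl6l and Rpl32l, both annotated as processed pseudogenes, at most 0.807 and 0.261 CPM. Rpl24 reached at most 1.61 CPM and Rpl36al at most 1.08 CPM. These last 2 encode proteins of the ribosome in most cells, and their rows were low in both groups.

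The rows of Rpl24 and Rpl36al share a feature with those of Rpl13a and Rps10, which were tested and had the lowest levels of all tested members. In these 4 genes, and in no other member, the annotated mRNA overlaps the exons of another gene on the same strand, small RNA genes aside. The overlap covers 71.5% of the Rpl24 mRNA (with Gm28037), 63.1% of that of Rpl36al (Gm49383), 59.3% of that of Rpl13a (Gm45713) and 53.6% of that of Rps10 (RPS10-NUDT3). Gm28037, Gm45713 and RPS10-NUDT3 had 0 counts in every library, and Gm49383 had between 6.95 and 11.5 CPM. Reads that fit more than 1 gene stood on a line of their own in the count tables, with 0.883% to 1.10% of the listed reads. Whether the reads of these 4 genes are among them was not tested.

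Rpl13a (ENSMUSG00000074129.14, chromosome 7, 45125558 to 45128761) had 6.92, 7.46 and 5.65 CPM with DMSO, against 6.06, 5.06 and 5.88 CPM with GSK-126. This difference, -0.23 on the log2 scale (standard error 0.24), was the lowest of the 77 and did not pass with the block (adjusted p = 0.629, edgeR). Rps10 (ENSMUSG00000052146.16, chromosome 17, 27630418 to 27636669) had 3.00, 3.92 and 3.65 CPM with DMSO, against 2.65, 4.42 and 2.94 CPM with GSK-126, with a log2 fold change of -0.085 (standard error 0.32). The groups overlapped for both genes. Rpl13a, Rps10 and Rps4l were the only 3 of the 77 genes with a log2 fold change at or below 0 in the fit without the block, and Rps10 turned to 0.016 when pseudogene copies were added.

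Rpl26, a large subunit protein near the exit tunnel that also binds the p53 mRNA, stood apart from all other tested members. It is described here although the rule for naming genes did not select it, and its copy was chosen after the values were seen. Rpl26 (ENSMUSG00000060938.14, chromosome 11, 68901583 to 68906989) had 147, 5.03 and 40.0 CPM in DMSO replicates 1, 2 and 3 and 190, 10.02 and 34.7 CPM in GSK-126 replicates 1, 2 and 3. The levels thus followed the replicate number in both groups, and in the other 76 tested members the highest library exceeded the lowest by 1.27 to 2.86 times. Gm15772 (chromosome 5, 3236431 to 3236868), an annotated processed pseudogene of 438 bp, aligns without a gap to positions 48 to 485 of the Rpl26 mRNA, which are its coding sequence, at 99.5% identity. Counted from the first base of the annotated Rpl26 mRNA, the 2 differences are C224T and T335C, with the base of Rpl26 first. The stretches around both positions are printed because they are the letters in which the copies differ, with that base in capitals.
Rpl26 at 210 to 238: gttcaggttgttcgCggacactacaaagg
Gm15772 at 210 to 238: gttcaggttgttcgTggacactacaaagg
Rpl26 at 321 to 349: ggcacaaccgtccaTgtgggcatccaccc
Gm15772 at 321 to 349: ggcacaaccgtccaCgtgggcatccaccc

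The row of Gm15772 had 30.3, 79.5 and 82.2 CPM with DMSO, against 37.2, 104 and 85.1 CPM with GSK-126 and was lowest in the libraries with number 1, where Rpl26 was highest. Of the sum of both rows, Rpl26 held 82.9%, 5.95% and 32.7% in DMSO replicates 1, 2 and 3 and 83.6%, 8.77% and 29.0% in GSK-126 replicates 1, 2 and 3. The share differed widely between replicate numbers and little between the 2 libraries of a number. The sum itself was 178, 84.6 and 122 CPM with DMSO, against 227, 114 and 120 CPM with GSK-126. The log2 fold change of Rpl26 was 0.30 with a standard error of 1.19 without the block and 0.26 (standard error 0.14, adjusted p = 0.272, edgeR) with it. What sets the share was not tested.

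**Figure D4:**
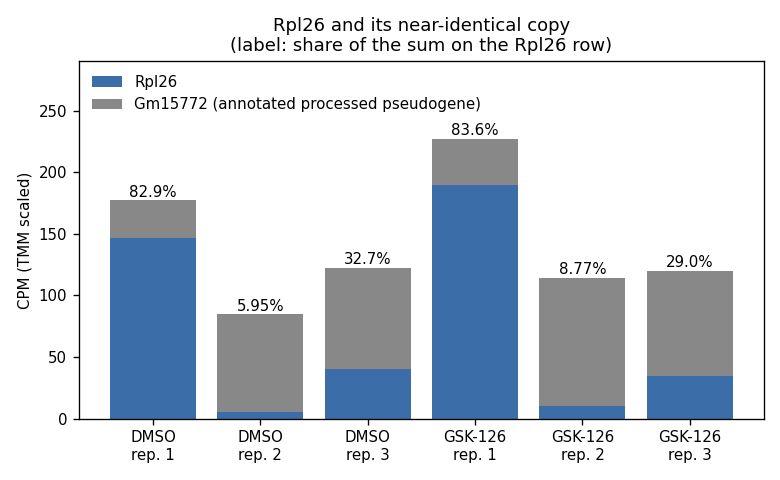
Level of Rpl26 and of the processed pseudogene Gm15772 in each library (y axis, CPM scaled with TMM factors, stacked), with the share of Rpl26 in the sum above each bar. The share is 82.9% and 83.6% in the libraries with number 1, 5.95% and 8.77% in those with number 2, and 32.7% and 29.0% in those with number 3.

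Other copies were then examined in the same way, after these values were seen. Annotated pseudogenes that share at least 1 stretch of 100 bases with a tested member and held a mean of 50 or more counts per library numbered 15. For 11 of the 15, the share in the sum of copy and member differed at least 2-fold between libraries. Rpsa-ps10 held 0.730%, 15.6% and 8.52% of its sum with Rpsa in DMSO replicates 1, 2 and 3 and 0.557%, 16.2% and 8.06% in GSK-126 replicates 1, 2 and 3. Rps2-ps13 held 16.0%, 31.0% and 33.8% of its sum with Rps2 with DMSO and 15.6%, 29.2% and 33.7% with GSK-126, and Rps19-ps6 held 7.07%, 3.46% and 0.268% of its sum with Rps19 with DMSO and 6.86%, 2.74% and 0.340% with GSK-126. In these 3 copies, libraries of the same number lay close together, as for Rpl26. Over the 15 copies, the share differed at least 2-fold between the libraries of 1 number for 5, which were Rps24-ps3, Rps2-ps10, Rps26-ps1, Gm13841 and Gm8210. The largest such ratio was 4.27, for Rps24-ps3, which held 0.415%, 7.16% and 2.44% with DMSO and 0.0972%, 6.98% and 2.16% with GSK-126. It rests on few reads, as the copy had 11 counts in DMSO replicate 1 and 5 in GSK-126 replicate 1. The same holds for Rps2-ps10, with 8 and 3 counts in number 3, and for Rps26-ps1, with 8 and 7 counts in number 1. Gm13841 and Gm8210 are both copies of Rpl29. Gm13841 held 7.63%, 10.9% and 3.32% with DMSO and 7.92%, 10.7% and 11.3% with GSK-126. Gm8210 held 13.7%, 15.5% and 6.90% with DMSO and 10.1%, 8.64% and 15.2% with GSK-126. Rps3a1, a small subunit gene whose symbol the rule does not take in, held 28.6%, 85.2% and 99.5% of its sum with the pseudogenes Rps3a2 and Rps3a3 with DMSO and 28.2%, 84.4% and 99.3% with GSK-126.

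Copies were added to their member in a further fit to see whether they bear on the comparison. The median log2 fold change was then 0.27 without the block and 0.28 with it, and 45 genes were called higher with the block, among them all 44 called before. The share of an mRNA's 100-base windows that occur in other transcripts had a median of 39.0% over the 84 members, with 10 members at 0. The 32 tested members with at least 50% of their windows shared had a median log2 fold change of 0.26, and 18 of them were called with the block. The 45 members below that had a median of 0.27 and 26 calls. Across the 77 members, Spearman's rho between this share and the log2 fold change was -0.019, a description over genes that share the same 6 libraries.

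Fold changes tended to be larger for shorter annotated mRNAs. Spearman's rho between mRNA length and log2 fold change was -0.42 across the 77 members, again a description, and that between mean CPM and log2 fold change was -0.16. The 2123 other tested genes with an mRNA under 1000 bp had a median log2 fold change of 0.059, and the 1517 other genes at or above the lower quartile of the members' abundance had a median of -0.085, with 35.3% of them above 0. With a correction for length and GC content in the block fit, the median of the members was 0.23 and 40 were called higher, 37 of them among the 44. Those outside the 44 include Rps15a and Rps20 (adjusted p = 0.0102 and 0.0386, edgeR), whose annotated mRNAs of 5130 and 3706 bp entered the correction. Both the correction and the rho for length depend on the annotated transcript, and whether it is the one expressed was not tested. Members named for their spread between pairs, after their values were seen, were Rpl29 and Rps21. Rpl29 had log2 ratios of 0.56, 0.54 and -0.42 in pairs 1, 2 and 3, and Rps21 had -0.099, 0.64 and 0.71.

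Promoter windows from RefSeq, of 250 bases before to 50 bases after the annotated start (GRCm38.p6), were found for 62 of the 84 members, with 74 windows in all. A pyrimidine tract, searched as a C followed by at least 7 further C or T on the gene's strand within 50 bases of the start, was present in 79.7% of these windows and in 28.8% of all 32851 windows. The letters CCGGAAG, a core that ETS factors can bind, were present on either strand in 35.1% of the members' windows and 8.86% of all windows, GGGCGG in 58.1% and 35.7%, and TATAAA in 9.46% and 13.6%. The 49 tested members with a tract had a median log2 fold change of 0.28 and 27 calls with the block, and the 7 without, which were Rpl23, Rplp0, Rps3, Rps4x, Rps13, Rps28 and Rpsa, had a median of 0.27 and 6 calls. Rps3 and Rps28 are named for their windows alone, and Rpl35 for its window and its overlap on the opposite strand, after their values were seen. The tracts of 4 genes called higher and of the 2 genes with the lowest fold changes are printed as examples, with the tract in capitals. Rpl12 and Rps19, also called higher, carry a tract that is not printed. The 2 genes with the lowest fold changes, Rpl13a and Rps10, had low counts. A change of the members' size was not detectable for them, so they do not stand for genes without a change.
Rps12 (chr10:23787180-23787209, minus strand): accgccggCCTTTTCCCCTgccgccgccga
Rps18 (chr17:33955646-33955675, minus strand): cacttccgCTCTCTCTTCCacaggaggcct
Rpl31 (chr1:39367825-39367854, plus strand): tcgccacaCCTCTTCCTCCTCgcctccccg
Rpl35 (chr2:39005117-39005146, minus strand): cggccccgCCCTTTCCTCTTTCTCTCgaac
Rpl13a (chr7:45128722-45128751, minus strand): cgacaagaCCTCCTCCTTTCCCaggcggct
Rps10 (chr17:27635226-27635255, minus strand): cgcgcacgCCCCTTCCTTTCCagcctccgc
Of these, the tract of Rps12 begins 8 bases and that of Rpl13a 2 bases after the annotated start, and those of the other genes lie before it or across it. A match of letters is a description and not a measured start site.

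The other genes of translation were read from the same fits, and without the block 0 of them passed (adjusted p under 0.05, edgeR). Over all tested genes, 48.8% had a log2 fold change above 0, the share beside which the list counts above 0 stand. Of the 14 elongation factor and other TOP mRNA genes, 14 had a log2 fold change above 0, with a median of 0.16, and 1 (7.14%) was called higher with the block, against 3.35% of all tested genes. This was Eef1g, a subunit of the elongation factor eEF1, with 267, 230 and 254 CPM with DMSO, against 315, 300 and 309 CPM with GSK-126 (block log2 fold change 0.30, adjusted p = 0.00971, edgeR). Its groups did not overlap. Eef1a1 and Eef2, the main elongation factors, are named after their values were seen and had block log2 fold changes of 0.13 and 0.067 that did not pass (adjusted p = 0.256 and 0.611, edgeR). Among ribosomal proteins that the symbol rule leaves out, 6 of 8 tested were above 0, and Rack1, a scaffold on the small subunit, was called higher with the block (0.24, adjusted p = 0.0354, edgeR). The elongation list shares a few Eif3 and Eif4 genes with the initiation list.

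Of 71 ribosome biogenesis genes, 56 were above 0 with a median of 0.086, and 2 were called higher with the block and 0 lower. That is 2.82% of the list, near the 3.35% of all tested genes called higher by the same fit. Npm1, a nucleolar chaperone, had 250, 210 and 237 CPM with DMSO, against 315, 265 and 276 CPM with GSK-126, and a block log2 fold change of 0.30 (adjusted p = 0.0102, edgeR). Fbl, the methyltransferase fibrillarin, had 40.3, 31.0 and 36.8 CPM with DMSO, against 51.5, 45.2 and 45.0 CPM with GSK-126, and 0.40 with the block (adjusted p = 0.0254, edgeR). The groups did not overlap for either. Of 36 initiation factor genes, 27 were above 0 with a median of 0.066, and 1 was called higher with the block, or 2.78%, which is also near the share over all tested genes. This was Eif1a (0.33, adjusted p = 0.0217, edgeR). The 75 mitochondrial ribosomal protein genes had a median of 0.059 with 50 above 0, and the 13 chaperones of ribosomal proteins one of 0.072 with 11 above 0. The 15 RNA polymerase I genes had a median of -0.049 with 7 above 0, and the 15 genes of mTORC1 and TOP mRNA control one of 0.016 with 8 above 0. In these last 4 lists 0 genes were called in either direction with the block, with 5, 1, 1 and 2 at an unadjusted p under 0.05 and higher. Over all tested genes, 9.43% were higher at that unadjusted p in the same edgeR fit, and no result about these lists is read from the counts.

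**Figure D5:**
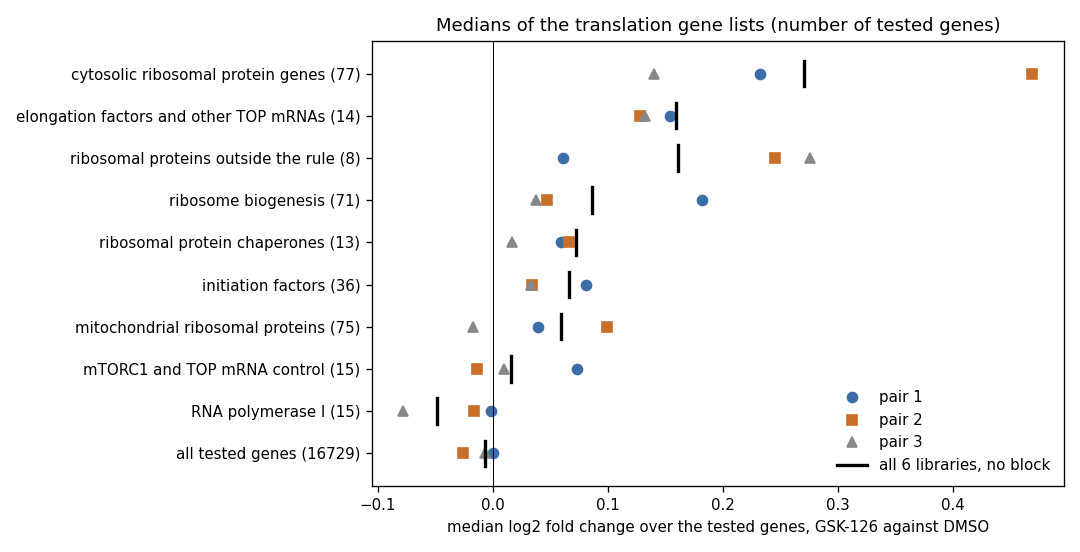
Median log2 fold change with GSK-126 against DMSO (x axis) over the tested genes of each list (y axis, number of genes in brackets), for all 6 libraries without the block (black bars) and within each replicate pair (symbols). The cytosolic ribosomal protein genes have a median of 0.27 and lie above 0 in each pair, and the RNA polymerase I genes have a median of -0.049.

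Mutations in some ribosomal protein genes cause Diamond-Blackfan anaemia, a failure of red cell production. Of 20 such members, 20 were tested, 19 were above 0 with a median of 0.27, and 8 (40.0%) were called higher with the block, where 57.1% of all 77 tested members and 3.35% of all tested genes were.

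Markers of the cells in the cultures were summed per library and set beside the levels of the ribosomal protein genes. DMSO replicate 2, the lowest library for 72 of the 77 genes, had the highest sum of granule neuron markers, 5850 CPM, and GSK-126 replicate 1, the highest for 70, had the lowest, 3040 CPM. Of the 10 granule neuron markers, 6 (60%) were called lower with the block and 2 (20%) higher, with a median log2 fold change of -0.32. Over all tested genes, the same fit called 5.09% lower and 3.35% higher, the shares beside which all marker calls here stand. Those called lower with the smallest p were Etv1, a transcription factor, Gabra6, a GABA-A receptor subunit of mature granule neurons, and Rbfox3, the neuronal antigen NeuN, with block log2 fold changes of -1.17, -1.19 and -0.59 (adjusted p = 1.53e-07, 1.53e-07 and 2.69e-05, edgeR). Tubb3, a neuronal tubulin, and Barhl1, a transcription factor of the granule lineage, were called higher at 0.40 and 0.33 (adjusted p = 0.0234 and 0.0492, edgeR). The study reports that GSK-126 added at DIV3 lowered late genes, whose promoters lose the H3K27 mark as granule neurons mature. It lists Gabra6 among late genes. Fewer granule neurons and lower marker expression per neuron cannot be told apart here. The sum of 6 astroglial markers was 6940, 2250 and 3810 CPM in DMSO replicates 1, 2 and 3. In GSK-126 replicates 1, 2 and 3 it was 7230, 2120 and 3770 CPM. This sum differed by replicate number far more than by drug. Of the 6 markers, 3 had a log2 fold change above 0, with a median of 0.025. Only S100b, or 16.7% of the 6, was called higher with the block (log2 fold change 0.56, the scale of the values in brackets that follow). The sum of 6 microglial markers was 342, 151 and 269 CPM with DMSO, against 399, 219 and 330 CPM with GSK-126. C1qa and Tyrobp, or 33.3% of the 6, were called higher (0.48 and 0.52). The sum of 7 oligodendrocyte lineage markers was 738, 422 and 596 CPM with DMSO, against 757, 492 and 681 CPM with GSK-126. Mbp, or 14.3% of the 7, was called higher (0.28). The 8 vascular and fibroblast markers summed to 7350, 8000 and 9930 CPM with DMSO, against 9120, 8490 and 10800 CPM with GSK-126. Acta2, Pdgfrb and Col1a2, or 42.9% of the 7 tested, were called higher (0.43, 0.36 and 0.22). The sums of microglial, oligodendrocyte lineage and vascular markers were thus higher with GSK-126 within each number, as were those of the ribosomal protein genes. The 6 markers of granule neuron precursors and division summed to 387, 314 and 413 CPM with DMSO, against 462, 296 and 449 CPM with GSK-126, with 0 called in either direction. The 7 Purkinje cell and interneuron markers summed to 174, 155 and 182 CPM with DMSO, against 150, 141 and 135 CPM with GSK-126. Gad1 and Gad2, or 28.6% of the 7, were called lower (-0.32 and -0.52). Erythroid markers summed to 1.50 CPM or less, and 0 genes of these marker lists were at 0 in all libraries. The part of cell composition in the ribosomal protein result was not tested.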

How the data were processed

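Per the study's methods and the submitters' processing notes, the authors trimmed reads with Trimmomatic 0.38, aligned them to the mouse genome (mm10) with STAR 2.7.2b and counted reads on exons with HTSeq. The deposited values are raw counts on each gene, with no normalization. The strand setting was not given in the sources used here. Lines of the tables that name no gene held 58.7% to 60.7% of the listed reads and were left out, and 9.32% to 10.4% were listed as not uniquely aligned. Gene symbols were matched to GENCODE M21 (GRCm38) for coordinates, overlaps and 1 annotated transcript per gene, the APPRIS principal one where marked.

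Counts were tested in R 4.3.3 with edgeR 4.0.16 (TMM, filterByExpr, quasi-likelihood test, all 6 libraries, no block), with Benjamini-Hochberg adjustment over all 16729 tested genes and calls at an adjusted p under 0.05. Adjusted p values of the other fits were adjusted over the genes that each fit tested. Most adjusted p values given for single genes are from the fit with the block. The edgeR fits with the block and without pair 1, 2 or 3 tested 16868, 16839 and 16898 genes. Ratios within a pair are on the log2 scale of CPM with a prior count of 2. Standard errors were derived from the edgeR test, as the absolute log2 fold change divided by the square root of the F statistic. They are approximate, and least certain for genes near no change. Deviations from the group means correlated across genes at 0.561, 0.634 and 0.487 between libraries of the same number and at 0.00638 or less between others, so the numbers were taken to pair libraries, and a fit that blocks on the number stands beside the other. The biological coefficient of variation was 24.0% without and 9.74% with the block. Replicates are cultures of pooled litters, and no interval from counts alone is given, since the fits include the counting error. DESeq2 1.42.0 was an alternative. The fits were tested on simulated data, drawn around means fitted on the replicate number. Each gene was drawn independently there, so the simulation cannot bear on the calls of the ribosomal protein genes.

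The members and gene lists were chosen with earlier results of these data known, so no list was given a test. Genes were named by rule: members that failed the filter, the 5 with the highest mean CPM, the 6 per direction with the smallest p with the block, the stalk, 5S RNA, X-linked and paralog members, the 2 nearest to no change, and up to 3 called genes per other list and direction. Other members and list genes named are marked as chosen later.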

Additional observations from a re-analysis of the deposited data

How the results depend on the processing

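The median log2 fold change of the ribosomal protein genes stayed above 0 in every alternative run, between 0.13 (without DMSO replicate 2) and 0.40 (without DMSO replicate 1), 73 to 75 of 77, or 74 to 77 of 78, were above 0 in fits that tested that many of them and 77 of 83 in the others (DESeq2 with and without the block, and edgeR without a filter), and the ratio of summed levels was between 1.09 and 1.29. Calls depended on the pairing. With the replicate block in edgeR, 44 ribosomal protein genes were called higher, with 561 genes higher and 851 lower over all tested genes and 5 in the other translation lists. DESeq2 with the block gave 36, 351, 600 and 3, the block with a correction for length and GC content 40, 682, 857 and 7, the block with pseudogene copies added, an alternative chosen after seeing the data, 45, 553, 843 and 5, and the block at an adjusted p under 0.01 gave 13, 242, 474 and 1. With the block and pair 1, 2 or 3 left out, 37, 11 and 50 ribosomal protein genes were called, 417, 337 and 558 of all genes higher and 671, 496 and 719 lower, and 2, 3 and 7 genes of the other lists, while fits without the block and with 1 library left out called 0 ribosomal protein genes. Without the block, DESeq2 called 19 genes higher and 2 lower and edgeR without a filter 9 and 1, with 0 ribosomal protein genes in both. No ribosomal protein gene was called lower in any fit listed here. The fits tested different numbers of genes. These were 16729 for the block and its length and GC correction, and 16688 with copies added. They were 16868, 16839 and 16898 with the block and without pair 1, 2 or 3. DESeq2 tested 12332 genes with the block and 14611 without it, and edgeR without a filter tested 29476.

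Of the members named, signs changed for Rps4l, Rpl26 and Rps10. Among these, Rpl26 alone was called in any fit, higher with the block and pair 3 left out (log2 fold change 0.52, edgeR adjusted p = 0.0054). Rps4l, at -0.00057, was 0.0029 with the block, also at the stricter threshold, 0.0061 with DESeq2, 0.0087 with DESeq2 and the block, 0.037 with upper-quartile factors, 0.038 with library totals, 0.00045 with TMM factors computed without the members, 0.014 without a filter, 0.018 with at least 10 counts in every library, 0.0034 with the block and copies added, 0.040 and 0.0075 with the block without pair 1 and pair 2, and -0.15 to 0.20 with libraries or pairs left out. Rps10 was 0.016 with copies added and 0.0020 with the block as well, 0.011 with the block without pair 3, and -0.32 to 0.079 with libraries or pairs left out. Rpl26 was between -1.51 (without GSK-126 replicate 1) and 1.81 (without DMSO replicate 1), and -0.24 without DMSO replicate 2. For these genes the cause was not tested. Leaving out 1 library of a pair leaves the other without its partner. The standard errors of Rpl13a and Rps10, 0.24 and 0.32 both without and with the block, were close to the median change of the members. A change of that size was thus not detectable for these 2 genes in either fit. Rpl41, named after its values were seen, had a standard error of 0.27 without the block, at a mean of 221 CPM with DMSO. With the block that of Rpl41 was 0.10. Rpl12 had standard errors of 0.15 without and 0.075 with the block. The part of low counts in the standard errors was not tested.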
